A study of Mus with 18 samples.

Results

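The 10 genes described here encode the enzymes and the transporter that bring arginine into the cell and turn it into nitric oxide, urea and polyamines. They are Nos1, Nos2, Nos3, Arg1, Arg2, Ass1, Slc7a2, Gch1, Odc1 and Sat1, and they were chosen by symbol from the 21401 genes listed in each of 2 expression tables. All 10 symbols were found in both tables. One table covers C2C12, a mouse myoblast line, and the other covers gastrocnemius, a calf muscle, of wild-type C57BL/6 male mice whose age is not given in the sources used here. Each table holds 3 control libraries, 3 libraries after lipopolysaccharide (LPS) and 3 libraries after LPS together with moringa isothiocyanate-1 (MIC-1), an isothiocyanate from the seeds of Moringa oleifera, which makes 18 libraries in all. By the labels, cells received LPS at 1 μg/mL and MIC-1 at 10 μM, and the combined treatment lasted 24 h. The study's own text gives a lower MIC-1 dose for the sequenced cells. Mice received LPS at 10 mg/kg by intraperitoneal injection. In the combined group MIC-1 was given by gavage at 80 mg/kg in 10% DMSO, each day for 3 days before LPS. Muscle was collected 16 h after the LPS injection. Controls received vehicle, which the labels call saline for both experiments. The study's methods name ethanol for the cells, and a figure legend names oral 10% DMSO for the control mice. There was no group given MIC-1 alone. The comparisons ask which of these genes LPS changes and what MIC-1 does to that change.

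Nitric oxide is made from arginine by 3 synthases. Nos1 encodes the neuronal form, which is the form of skeletal muscle fibres, Nos3 encodes the endothelial form and Nos2 the inducible form, which macrophages switch on after bacterial products. All 3 need tetrahydrobiopterin, and Gch1 encodes GTP cyclohydrolase, the first enzyme of its synthesis. Slc7a2 encodes a cationic amino acid transporter that imports arginine, and Ass1 encodes argininosuccinate synthase, which begins the return of citrulline to arginine. The arginases, Arg1 in the cytosol and Arg2 in mitochondria, split arginine into urea and ornithine. Odc1 encodes ornithine decarboxylase, which makes the first polyamine from ornithine, and Sat1 encodes the acetyltransferase that starts polyamine breakdown and export.

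Levels are given as FPKM, fragments per kilobase of transcript scaled to the size of the library, so levels of different genes can be compared per length. Replicates of a group correlated across genes with r between 0.936 and 0.989, and no pair of libraries of the same group was identical. Sequencing depth per library is not given in the sources used here, so FPKM values near 0 rest on an unknown number of reads. Marker genes went against the C2C12 label in 6 of its 9 libraries. Of a list of 20 macrophage markers 19 were found, and their summed level was between 11201 and 11246 FPKM in control, between 8069 and 8297 FPKM in LPS and 299, 80.9 and 91.5 FPKM in LPS-MIC-1 replicates 1, 2 and 3. None of the 19 was at 0 throughout control or throughout LPS, while C1qa, C1qc and Aif1 were at 0 in all 3 LPS-MIC-1 libraries. The sum of 11 myoblast markers was at most 1.52 FPKM in control and 4.58 FPKM in LPS, with Myf5, Pax7, Msc and Chrng at 0 in all 6 of those libraries, and between 1116 and 1412 FPKM in LPS-MIC-1. Lyz2, lysozyme of macrophages, had a mean of 4694, 1838 and 17.1 FPKM in control, LPS and LPS-MIC-1, and Des, the muscle filament desmin, 0.126, 0.498 and 397.7 FPKM. The control and LPS libraries labelled C2C12 thus carried macrophage and not myoblast transcripts, and in every comparison with LPS-MIC-1 in that table the treatment and this difference in markers cannot be told apart. In muscle, 15 fibre markers summed to between 186454 and 251079 FPKM in all 9 libraries. There, 12 genes known to respond to LPS summed to between 31.6 and 36.3 FPKM in control, between 30.7 and 32.0 FPKM in LPS and between 1828 and 2041 FPKM in LPS-MIC-1, and Lcn2, the siderophore-binding lipocalin, had means of 0.516, 0.972 and 1248 FPKM. The same 12 genes in the C2C12 table summed to at most 300.1 FPKM in control, at least 8270 FPKM in LPS and at most 1288 FPKM in LPS-MIC-1. Groups are therefore named below by their labels only. Muscle LPS-MIC-1 replicate 3 stood apart with a macrophage marker sum of 230.4 FPKM against 59.3 and 57.0 FPKM in the other two.

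**Figure D1:**
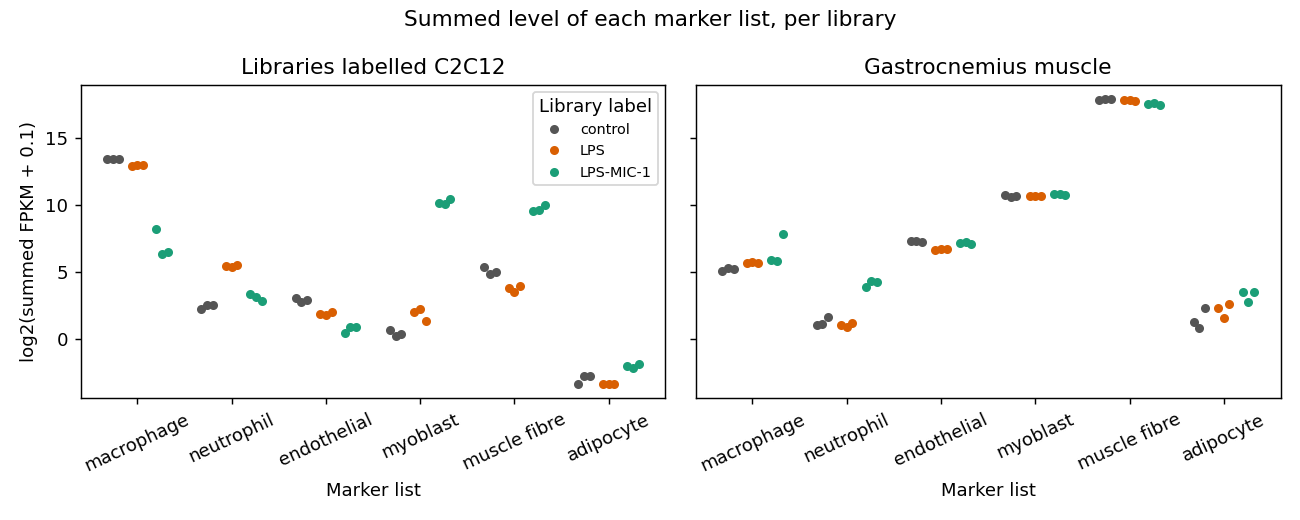
Summed level of each marker list in each library, on the log2(FPKM + 0.1) scale, with points for single libraries coloured by label and separate panels for the libraries labelled C2C12 and for gastrocnemius muscle. Macrophage markers sum to at least 8069 FPKM in the control and LPS libraries labelled C2C12 and to at most 299 FPKM in LPS-MIC-1, myoblast markers run the other way, and muscle fibre markers lead in all 9 muscle libraries.

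Tests used limma on log2(FPKM + 0.1) over the genes with a mean above 1 FPKM, 10877 in the C2C12 table and 9475 in muscle. A gene was called when its absolute log2 fold change exceeded 1 and its adjusted p was under 0.001 in the C2C12 table or under 0.05 in muscle. Of the 10 genes, 7 passed the level filter in each experiment. Nos1, Nos3 and Arg1 did not pass it in the C2C12 table, and Nos2, Arg1 and Arg2 did not pass it in muscle. An exact two-sided permutation test of 3 libraries against 3 cannot go below p = 0.1. The 3 comparisons of an experiment share their libraries, so each is described by its own values.

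In the libraries labelled C2C12, all 7 tested genes rose in LPS against control, where 10.9% of all tested genes were called higher. Of these 7, 6 fell and 1, Ass1, rose further in LPS-MIC-1 against LPS, where 25.6% of tested genes were called lower and 24.3% higher. Against control, LPS-MIC-1 was called higher for Ass1, Slc7a2 and Sat1 and lower for Gch1, beside 21.1% and 22.1% of tested genes in these directions. The median log2 fold change of the 7 genes was 4.88 in LPS against control, beside 0.00 over all tested genes, and -3.98 in LPS-MIC-1 against LPS, beside -0.05. The groups did not overlap for 7 of 7 genes in LPS against control, 7 of 7 in LPS-MIC-1 against LPS and 5 of 7 in LPS-MIC-1 against control, and over all tested genes this held for 79.4%, 85.5% and 83%. Arg2, Ass1 and Slc7a2 had control means under 1 FPKM and passed the level filter through libraries in which they were high.

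**Figure D2:**
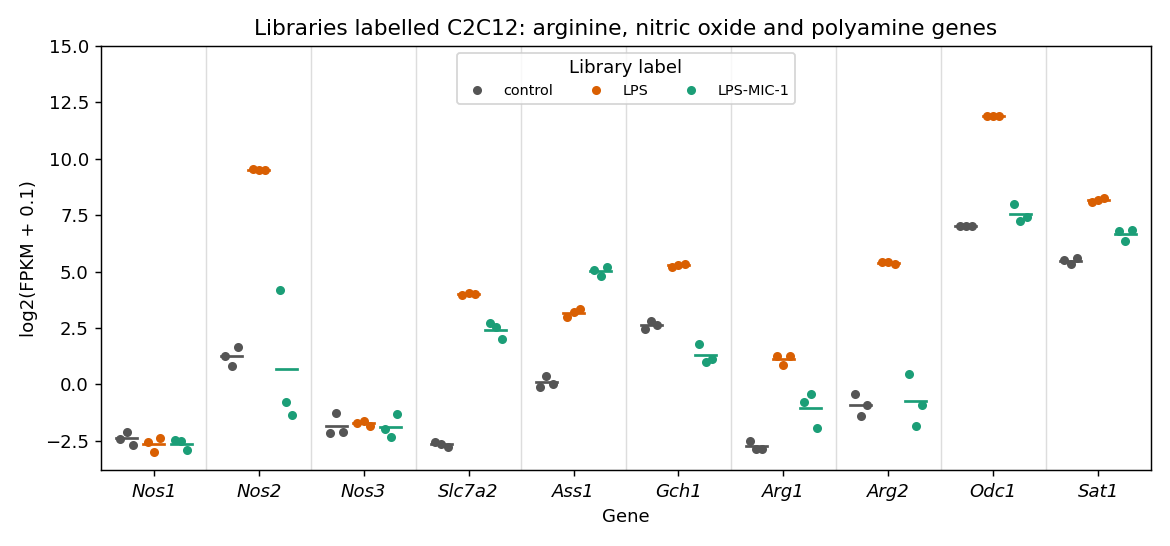
Level of each of the 10 genes in the 9 libraries labelled C2C12, on the log2(FPKM + 0.1) scale, with a point for each library and a bar for the mean of 3 on that scale. Nos2, Arg2 and Odc1 stand high in LPS alone, Ass1 is highest in LPS-MIC-1, and Nos2 spreads from 0.297 to 18.3 FPKM among the LPS-MIC-1 libraries.

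Of the 10 genes, Nos2 rose by the largest ratio of means. Its level was 2.28, 1.68 and 3.06 FPKM in control and 757, 726 and 720 FPKM in LPS, and with a mean of 735 ± 19.6 FPKM (SD, n = 3) it ranked 134th of 21401 genes in LPS. The LPS-MIC-1 libraries had 18.3, 0.483 and 0.297 FPKM. All LPS libraries were above all others, and among the LPS-MIC-1 libraries replicate 1 was above every control library while replicates 2 and 3 were below every one. Nos2 was 314-fold higher in LPS than in control by the ratio of means, a log2 fold change of 8.27 (SE 1.27, adjusted p = 0.000597, limma). It fell by 8.82 on the log2 scale in LPS-MIC-1 against LPS (SE 1.27, adjusted p = 0.000228, limma). Against control, LPS-MIC-1 gave a log2 difference of -0.55 (SE 1.27, adjusted p = 0.699, limma), although the ratio of means was 2.72, since replicate 1 carries that mean. Without LPS-MIC-1 replicate 1 the differences became -10.58 against LPS (adjusted p = 2.99e-08, limma) and -2.30 against control (adjusted p = 8.73e-05, limma), which is then a call. With LPS-MIC-1 replicate 1 kept, the rise in LPS missed the adjusted p limit whenever any single control or LPS library was left out. Its adjusted p was then between 0.00263 and 0.00329 (limma). Likewise the fall in LPS-MIC-1 missed the limit without any single LPS library or without LPS-MIC-1 replicate 2, with adjusted p between 0.00119 and 0.00126. The direction of the rise and of the fall was the same in each of these fits. Over all fits that left out a library, the adjusted p of the rise ran from 2.18e-07 to 0.00329. The fit shares 1 estimate of spread per gene over all 3 groups. Nos2 spread most among the LPS-MIC-1 libraries, through the 18.3 FPKM of replicate 1.

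The macrophage markers of LPS-MIC-1 replicate 1 moved with this value. Across 15 tested markers that replicate held a median of 2.86% of the LPS mean, with a range from 0 to 6.66%, against medians of 0.111% and 0.0426% in replicates 2 and 3. Nos2 in replicate 1 was at 2.49% of its LPS mean, against 0.0658% and 0.0404%. Arg2 was at 3.08% in replicate 1, against 0.434% and 1.03%. Odc1 stood at 6.58% against 3.92% and 4.51%, and Gch1 at 8.69% against 4.87% and 5.32%. Replicate 1 was not the highest in Sat1, Arg1 or Ass1, with Sat1 at 38.1%, 27.9% and 40.1%, Arg1 at 22.9%, 31.0% and 7.87% and Ass1 at 376%, 308% and 407% of the LPS mean in replicates 1, 2 and 3, while Slc7a2 was at 40.5%, 35.3% and 24.7%. The part of these markers in the levels was not tested.

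The other two synthases stayed near 0 in this table. Nos1 was between 0.0248 and 0.135 FPKM and Nos3 between 0.1 and 0.311 FPKM over the 9 libraries, the groups overlapped in every comparison, and neither was called when the level filter was dropped.

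The genes of arginine supply and of the cofactor differed from each other in LPS-MIC-1. Slc7a2, the arginine importer, was at 0.0726, 0.0588 and 0.0452 FPKM in control, 15.7, 16.6 and 15.9 FPKM in LPS and 6.51, 5.67 and 3.97 FPKM in LPS-MIC-1. None of the groups overlapped, and LPS-MIC-1 lay between the other groups. The rise in LPS was 6.67 on the log2 scale (SE 0.18, adjusted p = 6.23e-08, limma), and LPS-MIC-1 remained 5.08 above control (SE 0.18, adjusted p = 4.88e-08) while it fell by 1.59 against LPS (SE 0.18, adjusted p = 5.28e-05). Because the control level is below the pseudocount, the size of the rise in LPS ran from 4.01 with a pseudocount of 1 to 7.89 with one of 0.01.

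Ass1, which serves the recycling of citrulline, was the exception to the falls in LPS-MIC-1. Its level was 0.831, 1.20 and 0.914 FPKM in control, 7.90, 9.02 and 10.1 FPKM in LPS and 33.9, 27.7 and 36.6 FPKM in LPS-MIC-1. The 3 groups did not overlap and stood in that order. Ass1 rose by 3.08 on the log2 scale in LPS (SE 0.16, adjusted p = 1.52e-06, limma) and was a further 1.85 higher in LPS-MIC-1 than in LPS (SE 0.16, adjusted p = 1.04e-05), which put LPS-MIC-1 33.4-fold above control by the ratio of means. Asl, which encodes the next enzyme of the same recycling path, averaged 16.6 ± 0.523, 30.9 ± 1.77 and 20.3 ± 1.02 FPKM (SD, n = 3) in control, LPS and LPS-MIC-1. Its groups did not overlap, but it was not called in any comparison, as each change was inside the fold limit. The log2 difference was 0.89 in LPS against control (SE 0.06, adjusted p = 6.01e-06, limma). It was -0.61 in LPS-MIC-1 against LPS (adjusted p = 2.44e-05) and 0.28 in LPS-MIC-1 against control (adjusted p = 0.00272).

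Gch1, the cofactor enzyme, was at 5.45, 6.84 and 6.12 FPKM in control, 37.0, 39.0 and 40.9 FPKM in LPS and 3.38, 1.90 and 2.07 FPKM in LPS-MIC-1. The LPS libraries were the highest and all LPS-MIC-1 libraries were below control. Gch1 rose by 2.65 in LPS (SE 0.20, adjusted p = 1.02e-05, limma) and fell by 3.98 in LPS-MIC-1 against LPS (SE 0.20, adjusted p = 3.24e-07). In LPS-MIC-1 it was also lower than in control, with a log2 difference of -1.33 (SE 0.20, adjusted p = 0.000341, limma), a call that was lost, with adjusted p between 0.00105 and 0.00198, without any single control library or without LPS-MIC-1 replicate 2 or 3.

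Both arginases were highest in LPS, at very different levels. Arg2 was at 0.651, 0.282 and 0.437 FPKM in control, 42.5, 43.4 and 40.6 FPKM in LPS and 1.30, 0.183 and 0.436 FPKM in LPS-MIC-1. It rose by 6.30 on the log2 scale in LPS (SE 0.53, adjusted p = 1.79e-05, limma) and fell by 6.15 in LPS-MIC-1 (SE 0.53, adjusted p = 8.59e-06), where its values overlapped those of control (log2 difference 0.15, SE 0.53, adjusted p = 0.794). The sign of that last difference depended on single libraries. Arg1, the cytosolic arginase, was at 0.0768, 0.0380 and 0.0375 FPKM in control, 2.27, 1.69 and 2.32 FPKM in LPS and 0.481, 0.649 and 0.165 FPKM in LPS-MIC-1. These groups do not overlap, but the mean of all 9 libraries is below the filter. In a fit without the filter, over 15296 genes, Arg1 was 3.86 higher in LPS than in control (SE 0.37, adjusted p = 5.02e-05, limma) and had a log2 fold change of -2.16 in LPS-MIC-1 against LPS (SE 0.37, adjusted p = 0.00076), both past the limits, and 1.70 against control (SE 0.37, adjusted p = 0.00317), which is not. The Arg1 values rest on few reads, since the authors' mean normalized count over the 6 control and LPS libraries was 25.8.

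Odc1 was the most abundant of the 10 genes in every group of this table. Control had 128.7, 130.6 and 131.0 FPKM, LPS had 3823, 3820 and 3853 FPKM and LPS-MIC-1 had 252, 150.1 and 172.8 FPKM. With a mean of 3832 ± 18.3 FPKM (SD, n = 3) Odc1 was 14th of all genes in LPS, after rank 613 in control and before rank 567 in LPS-MIC-1. It rose by 4.88 on the log2 scale in LPS (SE 0.16, adjusted p = 1.56e-07, limma) and fell by 4.36 in LPS-MIC-1 (SE 0.16, adjusted p = 6.35e-08). All LPS-MIC-1 libraries were above all control libraries, yet the difference of 0.52 (SE 0.16, adjusted p = 0.0171) was not called.

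Sat1, of polyamine breakdown, was at 45.6, 39.9 and 48.4 FPKM in control, 268, 292 and 308 FPKM in LPS and 110.2, 80.8 and 116 FPKM in LPS-MIC-1. The groups did not overlap, and LPS-MIC-1 lay between the others. Sat1 rose by 2.70 in LPS (SE 0.14, adjusted p = 1.36e-06, limma), fell by 1.51 in LPS-MIC-1 against LPS (SE 0.14, adjusted p = 1.38e-05) and was 1.18 above control there (SE 0.14, adjusted p = 7.56e-05). Under quantile normalization that last difference was 0.89, inside the fold limit.

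**Figure D3:**
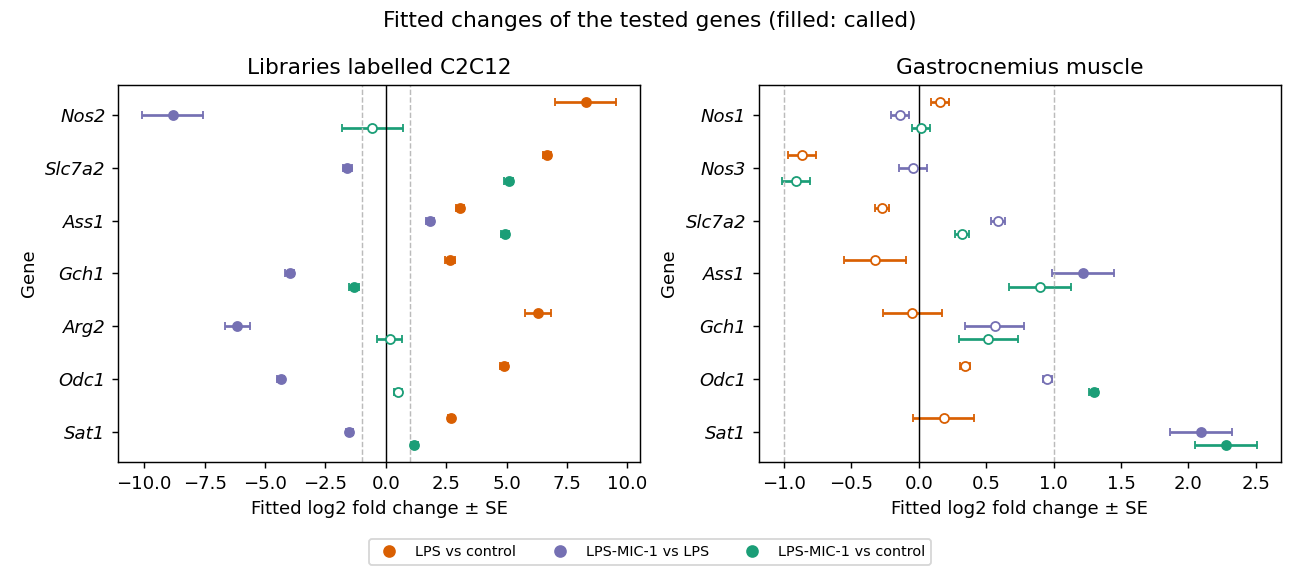
Fitted log2 fold change with its standard error for the 7 tested genes of each table, in 3 comparisons marked by colour, with dashed lines at the fold limit of 1 and filled points for calls. In the C2C12 table all LPS against control points are filled and above 2.5, whereas in muscle none is, and there the filled points are Ass1 and Sat1 in LPS-MIC-1 against LPS and Odc1 and Sat1 in LPS-MIC-1 against control.

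The order of the 10 genes changed between the groups labelled C2C12. In control, Odc1, Sat1, Gch1, Nos2 and Ass1 followed each other without overlap, and the 5 genes from Arg2 down to Arg1, all under 0.7 FPKM, overlapped their neighbours. In LPS the order was Odc1, Nos2, Sat1, Arg2, Gch1, Slc7a2, Ass1 and Arg1, with Nos3 and Nos1 last, and only Arg2 and Gch1 overlapped as neighbours. In LPS-MIC-1, Ass1 took the third place behind Odc1 and Sat1, and Nos2 overlapped Slc7a2 because of its replicate 1.

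Lists of further genes of these pathways moved less uniformly. In LPS against control, 1 of 9 tested genes of arginine supply and use rose and 3 fell, beside 10.9% of all tested genes called higher and 10% called lower. Slc3a2, the partner chain of several amino acid transporters, rose by 1.99 on the log2 scale, from 124.7 to 496.7 FPKM (SE 0.05, adjusted p = 6.16e-08, limma). Gamt, which completes creatine synthesis, fell by 2.08, from 35.0 to 8.24 FPKM (SE 0.09, adjusted p = 6.03e-07). The median log2 fold change of this list was -0.29, beside 0.00 over all tested genes. Of 6 tested cofactor genes 0 rose and 1 fell, with a median of -0.68. That gene was Spr, sepiapterin reductase of tetrahydrobiopterin synthesis, which fell from 40.8 to 18.3 FPKM (-1.15, SE 0.06, adjusted p = 1.42e-06). Of 7 tested nitric oxide regulators, Ddah2, which degrades a natural synthase inhibitor, was the 1 call (1.48, SE 0.24, adjusted p = 0.000736), and that call was lost in every fit that left out a single library except LPS replicate 3. The median of this list was 0.00. Ddah2 averaged 0.442 FPKM in control and 1.45 FPKM in LPS, and it passed the level filter only through LPS-MIC-1, at 71.8 FPKM. None of the 4 genes for the nitric oxide receptor and cGMP signalling was called, 1 of them having been tested.

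The polyamine list was split in LPS. Of 15 tested genes 2 rose and 3 fell, with a median of -0.37. Smox, spermine oxidase, had 48.5, 50.3 and 49.8 FPKM in control, 251.7, 251.3 and 252.3 FPKM in LPS and between 19.5 and 25.7 FPKM in LPS-MIC-1. It rose by 2.34 in LPS (SE 0.10, adjusted p = 4.35e-07, limma) and fell by 3.54 in LPS-MIC-1 (SE 0.10, adjusted p = 1.33e-08). Srm, spermidine synthase, went the other way in LPS, with 219, 213 and 209 FPKM in control and 57.8, 56.4 and 57.5 FPKM in LPS (-1.90, SE 0.05, adjusted p = 6.03e-08).

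Between LPS and LPS-MIC-1, 2 of 9 arginine supply genes were higher in LPS-MIC-1 and 2 lower, where 24.3% of all tested genes were higher and 25.6% lower (median -0.70, beside -0.05 over all tested genes), 3 of 6 cofactor genes were higher and 0 lower (median 1.35), and 4 of 7 nitric oxide regulators were higher and 1 lower (median 2.09). Ddah1, Ddah2, Cav1 and Pde5a passed the level filter only through LPS-MIC-1, the group in which they were high. The counts and medians of their lists are thus in part set by the filter. Slc7a1, another arginine importer, fell by 5.94, from 33.4 to 0.793 FPKM (SE 0.89, adjusted p = 0.000285, limma), a call lost without any single LPS library. Gchfr, the feedback regulator of the Gch1 enzyme, was at 15.2, 15.8 and 19.2 FPKM in LPS and 196.5, 212.3 and 276.6 FPKM in LPS-MIC-1 (3.76, SE 0.16, adjusted p = 1.16e-07), opposite to Gch1. Spr rose by 2.27 (SE 0.06, adjusted p = 1.24e-08) and Gamt by 1.56 (SE 0.09, adjusted p = 7.61e-07). Cav1, the caveolar protein that binds Nos3, averaged 0.0751 FPKM in LPS and 58.9 FPKM in LPS-MIC-1 (8.54, SE 0.39, adjusted p = 1.90e-07). Ddah1, a relative of Ddah2, was listed at 0 in all control and LPS libraries and had 5.78, 6.57 and 7.96 FPKM in LPS-MIC-1. Pde5a, the cGMP phosphodiesterase and the 1 tested gene of its list, rose by 5.21 (SE 0.14, adjusted p = 1.22e-08). Among 15 polyamine genes 4 rose and 3 fell (median -0.08), with Atp13a2, a lysosomal polyamine exporter, falling by 2.57 (SE 0.06, adjusted p = 8.60e-09).

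Against control, where 21.1% of all tested genes were higher and 22.1% lower, LPS-MIC-1 was higher for 1 and lower for 2 of 9 arginine supply genes (median -1.15, beside -0.06 over all tested genes), higher for 2 and lower for 0 of 6 cofactor genes (median 0.59), higher for 4 and lower for 1 of 7 regulators (median 1.64), and higher for 2 and lower for 5 of 15 polyamine genes (median -0.24), while Pde5a was higher (5.26). Slc7a1 fell by 5.66 there (SE 0.89, adjusted p = 0.000427, limma), a call lost without any single control or LPS library. Oat, which links ornithine to proline and glutamate, fell by 1.74 (SE 0.11, adjusted p = 1.29e-06). The larger cofactor changes were in Gchfr (3.97) and Spr (1.12, or 0.87 and not called under quantile normalization). Among the regulators Cav1 (8.90) and Ddah2 (7.06) were highest. Ddah1, Ddah2, Cav1 and Pde5a passed the level filter only through LPS-MIC-1. The regulator count and median against control are thus in part set by the filter, as is the Pde5a call. Atp13a2 fell by 3.81, and Dhps, the deoxyhypusine synthase that uses spermidine, rose by 2.81 (SE 0.08, adjusted p = 1.14e-08).

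**Figure D4:**
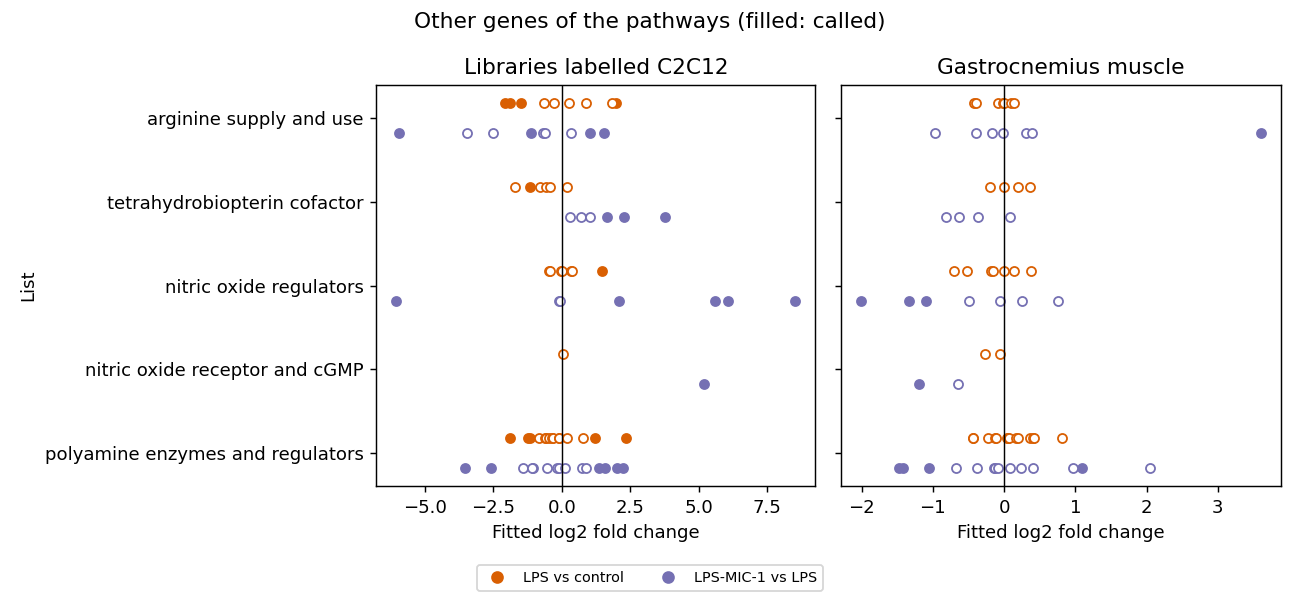
Fitted log2 fold changes of the tested genes in 5 further pathway lists, 1 point per gene, for LPS against control and LPS-MIC-1 against LPS, with calls filled. In the C2C12 table calls lie on both sides of 0 in arginine supply and in polyamine genes, and in muscle no gene of the 5 lists is called in LPS against control.

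In gastrocnemius none of the 7 tested genes was called in LPS against control, where limma called 1.25% of all tested genes. Nos3, Slc7a2 and Odc1 had an adjusted p under 0.05 but a change inside the fold limit, and 15.7% of tested genes had such a p at any fold. In LPS-MIC-1 against LPS, Ass1 and Sat1 rose and none fell, beside 9.67% of tested genes called higher and 5.44% lower. Ass1 and Gch1 passed the level filter only through LPS-MIC-1, the group in which their means were highest. Counts and medians with LPS-MIC-1 that include them are thus in part set by the filter. Against control, Odc1 and Sat1 rose, beside 9.33% called higher and 6.12% lower. The median log2 fold change of the 7 genes was -0.05 in LPS against control, 0.59 in LPS-MIC-1 against LPS and 0.52 in LPS-MIC-1 against control, beside 0.01, -0.01 and 0.01 over all tested genes. The groups did not overlap for 5, 4 and 6 of the 7 genes in these comparisons, beside 36.5%, 64.2% and 64.6% of all tested genes. Quantile normalization moved the median of all genes in LPS-MIC-1 against LPS from -0.009 to -0.116 and the split of calls there from 916 higher and 515 lower to 781 and 667.

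**Figure D5:**
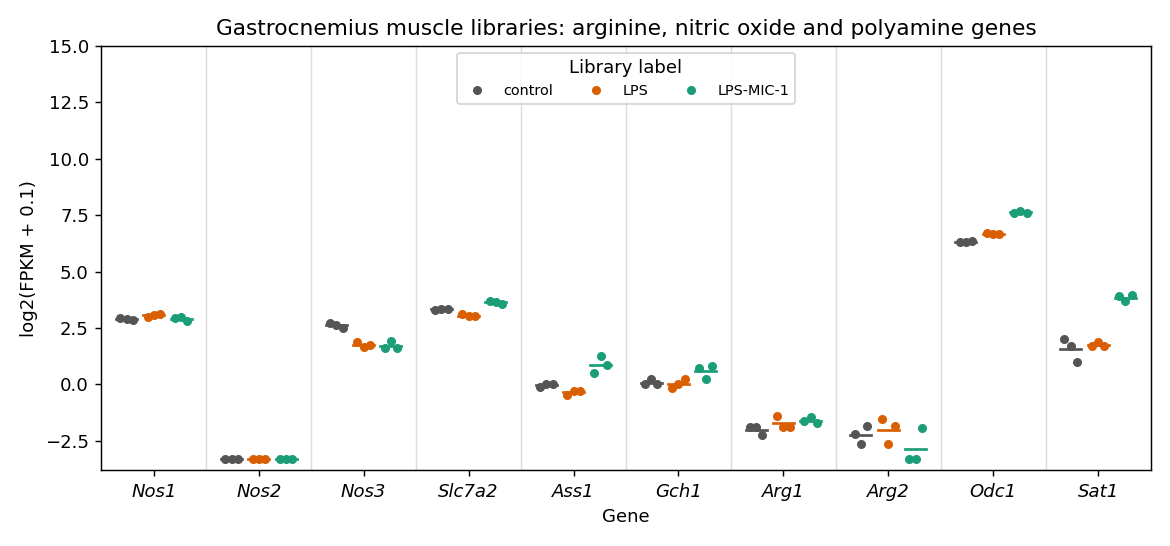
Level of each of the 10 genes in the 9 gastrocnemius libraries, on the log2(FPKM + 0.1) scale, with a point for each library and a bar for the mean of 3 on that scale. Odc1 leads in every group and is highest in LPS-MIC-1, Sat1 is higher in LPS-MIC-1 than elsewhere, Nos3 is lower in both treated groups than in control, and Nos2 lies on the floor of the scale because it is listed at 0 in all 9 libraries.

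Among the synthases, Nos1, the form of muscle fibres, was at 7.65, 7.35 and 7.12 FPKM in control, 7.84, 8.29 and 8.59 FPKM in LPS and 7.64, 7.86 and 6.90 FPKM in LPS-MIC-1. The LPS libraries were all above control, by 0.16 on the log2 scale (SE 0.07, adjusted p = 0.161, limma), and LPS-MIC-1 overlapped both other groups. Nos3, the endothelial synthase, was at 6.46, 6.11 and 5.63 FPKM in control, 3.54, 3.10 and 3.22 FPKM in LPS and 2.96, 3.65 and 2.99 FPKM in LPS-MIC-1. All 6 libraries of the treated groups were below all control libraries, and the treated groups overlapped each other. The log2 difference from control was -0.87 in LPS (SE 0.10, adjusted p = 0.00109, limma) and -0.91 in LPS-MIC-1 (SE 0.10, adjusted p = 0.000118). The second of these passed the fold limit without LPS-MIC-1 replicate 2 (-1.002) and under quantile normalization (-1.04). Between LPS-MIC-1 and LPS the difference was -0.04 (SE 0.10, adjusted p = 0.765). Endothelial markers, 12 of 12 found, summed to between 156.0 and 163.9 FPKM in control, between 103.4 and 107.2 FPKM in LPS and between 138.0 and 156.4 FPKM in LPS-MIC-1, and none was at 0 in all libraries of a group. In LPS against control 0 of 10 tested endothelial markers were called, with a median of -0.62. Their part in the Nos3 difference was not tested, and in such bulk samples fewer endothelial cells and less RNA per cell cannot be told apart.

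Nos2, the inducible synthase, was listed at 0 FPKM in all 9 muscle libraries, so no fold change is given. Muscle LPS-MIC-1 replicate 3, with its raised macrophage markers, was at 0 as well.

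The genes of arginine supply moved by less than in the C2C12 table. Slc7a2 was at 9.84, 9.91 and 9.99 FPKM in control, 8.52, 8.0 and 8.10 FPKM in LPS and 12.8, 12.6 and 11.7 FPKM in LPS-MIC-1. The 3 groups did not overlap, with LPS lowest and LPS-MIC-1 highest. The log2 differences were -0.27 in LPS against control (SE 0.05, adjusted p = 0.0111, limma), 0.59 in LPS-MIC-1 against LPS (SE 0.05, adjusted p = 2.73e-05) and 0.32 in LPS-MIC-1 against control (SE 0.05, adjusted p = 0.00096), all inside the fold limit. An adjusted p under 0.05 at any fold was found for 56.5% of all tested genes between LPS-MIC-1 and LPS and for 58.5% between LPS-MIC-1 and control.

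Ass1 was at 0.816, 0.912 and 0.921 FPKM in control, 0.617, 0.723 and 0.715 FPKM in LPS and 1.30, 2.32 and 1.70 FPKM in LPS-MIC-1, with no overlap between groups. It rose by 1.22 on the log2 scale in LPS-MIC-1 against LPS (SE 0.23, adjusted p = 0.00208, limma), while the difference was 0.90 against control (SE 0.23, adjusted p = 0.00977) and -0.33 in LPS against control (SE 0.23, adjusted p = 0.393). Without LPS-MIC-1 replicate 2 its mean fell under the level filter and it was not tested, and without LPS-MIC-1 replicate 1 the difference from control was 1.09 and was called. With a pseudocount of 1 the rise against LPS was 0.70 and was not called.

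Gch1 was at 0.908, 1.07 and 0.914 FPKM in control, 0.802, 0.919 and 1.08 FPKM in LPS and 1.56, 1.08 and 1.69 FPKM in LPS-MIC-1. Control and LPS overlapped, and LPS-MIC-1 overlapped LPS through its replicate 2, which lay just above control. The log2 differences of LPS-MIC-1 were 0.56 against LPS (SE 0.22, adjusted p = 0.0555, limma) and 0.52 against control (SE 0.22, adjusted p = 0.073).

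The arginases were near 0 in muscle. Arg1 was between 0.114 and 0.285 FPKM and Arg2 between 0 and 0.242 FPKM over the 9 libraries, and Arg2 was listed at 0 in LPS-MIC-1 replicates 1 and 2. All LPS and all LPS-MIC-1 libraries were above control for Arg1, and the groups overlapped for Arg2 in every comparison. Neither was called without the level filter. The authors' mean normalized counts for LPS and LPS-MIC-1 libraries together were 3.99 for Arg1 and 1.84 for Arg2, so these values rest on few reads.

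Of the polyamine genes, Odc1 separated all 3 muscle groups and Sat1 separated LPS-MIC-1 from the others. Odc1 was at 79.5, 78.8 and 82.8 FPKM in control, 103.9, 101.6 and 100.4 FPKM in LPS and 195.5, 205.3 and 192.1 FPKM in LPS-MIC-1. The groups did not overlap, and each was several times further from the next than its own range. Odc1 in LPS was 1.27-fold above control by the ratio of means, 0.34 on the log2 scale (SE 0.03, adjusted p = 0.000464, limma), inside the fold limit. LPS-MIC-1 was 1.94-fold above LPS (0.95, SE 0.03, adjusted p = 1.27e-07), also inside it, and 2.46-fold above control (1.30, SE 0.03, adjusted p = 1.93e-08), which was called. It ranked 718th of all genes in control, 588th in LPS and 344th in LPS-MIC-1.

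Sat1 was at 3.91, 3.21 and 1.88 FPKM in control, 3.11, 3.59 and 3.16 FPKM in LPS and 14.9, 12.9 and 15.3 FPKM in LPS-MIC-1. Control and LPS overlapped, and all LPS-MIC-1 libraries were above them. Sat1 rose by 2.09 in LPS-MIC-1 against LPS (SE 0.23, adjusted p = 9.08e-05, limma) and by 2.28 against control (SE 0.23, adjusted p = 5.25e-05), which are 4.37-fold and 4.78-fold by the ratio of means. Both calls held in every fit that left out a single library. Of 13 tested macrophage markers 5 were called higher in LPS-MIC-1 against LPS and none lower, with a median of 1.04. Over all tested genes the median was -0.01, with 9.67% called higher and 5.44% lower. Of the 5, Cd14, Sfpi1 and Mpeg1 passed the level filter only through LPS-MIC-1, so this count and median are in part set by the filter. Cd14, the LPS co-receptor, was among the 5, at 3.39, 3.74 and 15.5 FPKM against at most 0.599 FPKM in LPS. Lyz2 was not called, at 8.31, 9.65 and 8.93 FPKM in LPS and 5.27, 3.93 and 78.3 FPKM in LPS-MIC-1. Of the 8 not called, C1qa, C1qb and C1qc had log2 differences below 0 (-0.87, -0.03 and -0.77). Emr1, Ptprc and Aif1 were at 0 in all LPS libraries and Aif1 also in all LPS-MIC-1 libraries. Of 4 tested neutrophil markers, S100a8 and Ngp rose, and both passed the level filter only through LPS-MIC-1. The 9 neutrophil markers found, of 10, had a sum between 14.5 and 20.1 FPKM against at most 3.06 FPKM in control and 2.24 FPKM in LPS, where Csf3r, Ngp and Ltf were at 0, while Cxcr2 and Mmp9 overlapped their control range and S100a9 was at 0 in LPS-MIC-1 replicate 1. The part of both marker lists in the Sat1 rise was not tested.

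The order of levels in muscle placed Odc1 first in every group. In control it was followed by Slc7a2, Nos1, Nos3 and Sat1 without overlap, and then by Gch1 and Ass1, which overlapped, and by the arginases, which overlapped too. In LPS Slc7a2 and Nos1 overlapped, as did Nos3 and Sat1. In LPS-MIC-1 Sat1 stood second, followed by Slc7a2, Nos1 and Nos3, with no overlap among these.

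Of the further pathway genes, none was called in muscle in LPS against control, with 7 arginine supply, 4 cofactor, 7 regulator, 2 cGMP and 14 polyamine genes tested and medians of -0.02, 0.10, -0.15, -0.16 and 0.06, beside 0.01 over all tested genes and 1.25% of them called. In LPS-MIC-1 against LPS, 1 arginine supply gene rose, 0 cofactor genes were called, 3 regulators and 1 cGMP gene fell, and 1 polyamine gene rose while 3 fell, with medians of -0.01, -0.50, -0.49, -0.92 and -0.11, beside -0.01, and with 9.67% of all tested genes higher and 5.44% lower. Slc7a6, a transporter that exchanges arginine, was at 2.71, 2.59 and 3.87 FPKM in LPS-MIC-1 and at most 0.416 FPKM in the other groups (3.60 against LPS, SE 0.76, adjusted p = 0.0039, limma). It passed the level filter only through LPS-MIC-1, and the size of its rise ran from 1.74 with a pseudocount of 1 to 4.91 with one of 0.01, with an adjusted p of 0.042 at the latter. Dynll1, a dynein light chain that binds Nos1, averaged 20.9, 18.2 and 4.52 FPKM in control, LPS and LPS-MIC-1 (-2.01 against LPS, SE 0.14, adjusted p = 6.45e-06). Ddah2 fell by 1.33 against LPS (SE 0.26, adjusted p = 0.00254) and Prkg1, the cGMP-dependent kinase, by 1.19 (SE 0.14, adjusted p = 0.000151), and both calls were lost with a pseudocount of 1. Smox was at 645, 671 and 635 FPKM in control, 1146, 1149 and 1120 FPKM in LPS and 423, 441 and 411 FPKM in LPS-MIC-1. It fell by 1.42 in LPS-MIC-1 against LPS (SE 0.03, adjusted p = 9.34e-09), and Amd2, of the S-adenosylmethionine decarboxylases, fell by 1.48 (SE 0.24, adjusted p = 0.000898), a call also lost with that pseudocount.

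Against control, LPS-MIC-1 in muscle had 1 arginine supply gene higher, 0 cofactor genes called, 3 regulators and 1 cGMP gene lower, and 1 polyamine gene higher and 2 lower, with medians of -0.41, -0.31, -0.35, -1.08 and 0.08, beside 0.01 over all tested genes, of which 9.33% were higher and 6.12% lower. Slc7a6 rose by 3.58 (SE 0.76, adjusted p = 0.00386, limma). Dynll1 fell by 2.19 (SE 0.14, adjusted p = 3.65e-06) and Prkg1 by 1.45 (SE 0.14, adjusted p = 4.34e-05). Cav1 had means of 73.9, 45.3 and 21.1 FPKM in control, LPS and LPS-MIC-1 and fell by 1.81 against control (SE 0.06, adjusted p = 1.04e-07), the reverse of its direction in the C2C12 table. Srm rose by 1.17 (SE 0.07, adjusted p = 2.85e-06). Sat2, a relative of Sat1, fell by 1.12 (SE 0.41, adjusted p = 0.0459), a call lost without control replicate 2 or 3, LPS replicate 1 or LPS-MIC-1 replicate 1 or 3.

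Genes whose pattern was most like that of Nos2 or Odc1 were found by Pearson's r of log2(FPKM + 0.1) over the 9 libraries of a table, as a description. For Nos2 in the C2C12 table they were Rsad2 (r = 0.998), Il1rn (0.995) and Bcl2a1a (0.995). Rsad2, which encodes the antiviral protein viperin, averaged 1.36, 261 and 2.34 FPKM in control, LPS and LPS-MIC-1, and Il1rn, the interleukin-1 receptor antagonist, 14.4, 1394 and 19.6 FPKM. For Odc1 they were Ndel1, Ppp1r15a and Zc3h12a (r = 0.998 for each), and Zc3h12a, an RNase that degrades inflammatory transcripts, averaged 17.74, 96.13 and 20.01 FPKM. In muscle, Odc1 was most like Lpin1 (0.999), Ubr2 (0.999) and Fhl1 (0.998). Lpin1, the phosphatidate phosphatase lipin, averaged 59.3, 80.8 and 180.8 FPKM there and Ubr2, a ubiquitin ligase, 13.1, 16.1 and 32.3 FPKM. The 9 points of each correlation fall into 3 groups and share their libraries.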

How the data were processed

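RNA was sequenced from 9 libraries labelled C2C12 and 9 of gastrocnemius, 3 per group, and groups were taken from the labels. Reads were pseudoaligned by the authors with kallisto and collapsed to genes with tximport, and the values deposited are FPKM for each gene in each library. The submitters' processing notes name the build mm9. The authors also deposited DESeq2 tables for 6 comparisons. Their fold changes and p-values were not used, and only the deposited base mean, a signal in which counts are scaled by size factors and then averaged across the 6 libraries of a comparison, was read, to judge depth and to check the tables. Of 11 unnamed columns in the muscle table, 9 held per-sample values and were not used. Depth per library is not given in the sources used here, so no counting interval is given.

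The 2 experiments were modelled separately on log2(FPKM + 0.1) by limma 3.58.1 (R 4.3.3), using a mean per group over 9 libraries, an eBayes trend and Benjamini-Hochberg adjustment over all genes with a mean above 1 FPKM. Fold changes on that scale understate changes of low genes. The labels do not state separate cultures, so p-values there measure the spread between libraries, which may be technical. Named genes were the 10 genes, the 2 called genes with the largest change per pathway list and comparison, the 3 genes most correlated with Nos2, Odc1, Arg1 or Nos1 where tested (those for Nos1 are not reported here), and the 2 most abundant genes of a marker list. The marker genes were the most abundant in either table, and not all of them are named. C1qa, C1qb, C1qc, Sfpi1 and Mpeg1 are named outside this rule. Asl and the genes named as being at 0 were added after their values were seen. The genes and all lists were chosen with earlier results of these data known. Alternatives were pseudocounts of 1 and 0.01, no filter, a mean above 5 FPKM, quantile and median-ratio scaling, a replicate block, only the 6 libraries compared, and leaving out each library. The fits were tested on simulated data. Plots were made in Python 3.11.15 using matplotlib 3.10.9.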

Additional observations from a re-analysis of the deposited data

Results flagged for a closer look

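Several of the 10 genes had differences of opposite sign in the libraries labelled C2C12 and in muscle, with no overlap between the groups in either. The difference between the experiments was not tested, since the tables were normalized separately. Over all tested genes, groups did not overlap for 79.4% to 85.5% in the C2C12 comparisons and for 36.5% to 64.6% in muscle. How many of all genes had opposite signs was not counted. In LPS against control, the log2 difference of Ass1 was 3.08 in the C2C12 table and -0.33 in muscle (adjusted p = 0.393 in muscle, limma). That of Slc7a2 was 6.67 and -0.27. In LPS-MIC-1 against LPS, Slc7a2 differed by -1.59 and 0.59, Odc1 by -4.36 and 0.95 and Sat1 by -1.51 and 2.09. In LPS-MIC-1 against control, Gch1 differed by -1.33 in the C2C12 table and 0.52 in muscle (adjusted p = 0.073 in muscle, limma). The other muscle differences listed here had an adjusted p under 0.05. In the C2C12 table, treatment and the difference in macrophage and myoblast markers cannot be told apart in comparisons with LPS-MIC-1. The sum of the 12 LPS response genes was highest in LPS in the C2C12 table, at 8270 FPKM or more. In muscle it was highest in LPS-MIC-1, at 1828 FPKM or more, and at most 32.0 FPKM in LPS. The same label thus did not go with the same response of these genes in both, and the part of this in the opposite signs was not tested.

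Nos2 had a value in data that no comparison used. Listed at 0 FPKM in all muscle libraries, it had an authors' mean normalized count of 857.4 in the deposited table of muscle control against LPS, in which Nos1 and Nos3 were at 0. That table held 21541 genes, and its base means followed the mean FPKM of the libraries with those labels with a Spearman's rho of 0.685 across genes, against 0.974 to 0.979 in the other 5 tables. In the 2 other muscle tables the base mean of Nos2 was 0. Whether that table was made from these muscle libraries is not known, so 857.4 cannot be read as a muscle level.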

How the results depend on the processing

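Of 96 counts of calls recomputed under settings other than leaving out a library, 88 stayed within 1.5 times the reported count, as did 107 of 108 counts with a library left out. In muscle LPS against control, the 118 genes called became 71 with a pseudocount of 1 and 57 with a mean above 5 FPKM. In muscle LPS-MIC-1 against LPS, 1431 became 2158 without a filter and 656 above 5 FPKM, and against control 1464 became 2240 and 677. A changed filter alters the number of genes tested, and a larger pseudocount damps low genes. The part of either in these counts was not tested. Of the 10 genes, 2 were called in muscle LPS-MIC-1 against LPS, and this became 1 with a pseudocount of 1, above 5 FPKM, and without LPS-MIC-1 replicate 2 (1 to 2 over all libraries left out).

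Signs turned only for differences that were not called, and the cause was not tested. In C2C12 LPS-MIC-1 against control, Nos2 was 0.019 with a pseudocount of 1 and between -2.30 and 0.46 with a library left out (0.19 without LPS-MIC-1 replicate 2, 0.46 without replicate 3), and Arg2 was -0.63 under quantile normalization, -0.09 without control replicate 2 and -0.46 without LPS-MIC-1 replicate 1 (highest 0.69). In muscle LPS against control, Gch1 lay between -0.15 and 0.046 with a library left out (0.023 without control replicate 2, 0.046 without LPS replicate 1) and Sat1 between -0.11 (without control replicate 3) and 0.40. Nos3 in muscle LPS-MIC-1 against LPS lay between -0.14 and 0.013 (0.013 without LPS replicate 1, 0.011 and 0.0030 without LPS-MIC-1 replicates 1 and 3). Nos1 in muscle LPS-MIC-1 against control was -0.14 under quantile normalization and between -0.021 and 0.072 with a library left out (-0.0077 without control replicate 3, -0.00090 and -0.021 without LPS-MIC-1 replicates 1 and 2).

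Deviations from the group means of libraries with the same replicate number correlated between -0.076 and 0.057 in the C2C12 table and between -0.054 and 0.082 in muscle. Pairs with different numbers ran from -0.091 to 0.121 and from -0.075 to 0.081. These correlations over all genes cannot show whether libraries of the same number shared a culture or a day. A replicate block changed the calls in C2C12 LPS against control from 1182 higher and 1093 lower to 1071 and 985, and no count by over 1.5 times. With this block, Nos2 in C2C12 LPS against control (8.27, adjusted p = 0.00156, limma) and Gch1 in LPS-MIC-1 against control (-1.33, adjusted p = 0.00192) missed the limit, as did Slc7a1 there (adjusted p = 0.00122), and no other single-gene call named here changed. With only the 6 libraries compared, Nos2 in C2C12 LPS-MIC-1 against LPS (adjusted p = 0.00175, limma) and Gch1 against control (adjusted p = 0.00269) missed it, as did Slc7a1 in both (adjusted p = 0.00215 and 0.0028). Values near 0 FPKM are limited by a depth that is unknown.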

Other observations

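Of 4165 genes listed at 0 FPKM in all 9 muscle libraries, Nos2 was the 1 gene with a mean above 50 FPKM in the C2C12 table, at 247.7 FPKM, among 1861 genes above that level, and the next highest had 43.3 FPKM. The limit of 50 FPKM was chosen after the values were seen.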
